A study of Sus scrofa with 6 samples.

Results

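The triglyceride assembly enzymes are the 10 genes GPD1, GPAM, GPAT3, GPAT4, AGPAT1, AGPAT2, AGPAT3, LPIN1, DGAT1 and DGAT2, which make glycerol-3-phosphate (GPD1) and carry it to triglyceride (the others). They were chosen by name from the 31908 Ensembl genes of the deposited expression table, and all 10 were found and passed the minimum level for testing, among 12839 protein-coding genes that did so. RNA came from the longissimus dorsi (LD) muscle, which runs along the spine, of 6 Laiwu pigs, a Chinese breed known for fat within its muscle. The S-H group held 3 pigs with extremely high intramuscular fat (IMF) content (LW63, LW70 and LW119), and the S-L group held 3 pigs with extremely low IMF content (LW82, LW88 and LW90). All 6 were castrated males, picked on this trait with regard to carcass weight, and no other treatment and no age is stated in the sources used here. Each pig gave 1 ribosomal RNA-depleted library.

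Cells build triglyceride mainly by the glycerol-3-phosphate route. GPD1 makes glycerol-3-phosphate from a glycolytic intermediate, GPAT enzymes add the first fatty acyl chain, AGPAT enzymes add the next one to give phosphatidate, lipins remove its phosphate to leave diacylglycerol, and DGAT enzymes add the last chain. Most steps have several isoenzymes, and in fat cells AGPAT2, LPIN1 and DGAT2 are known for their part in fat storage, while muscle fibres also make and burn triglyceride.

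Values are FPKM (fragments scaled by transcript length and library size) summed over the transcripts of a gene. The paper gives the reads of each library, but FPKM holds no counts, so the reads behind each gene are unknown. Per library, FPKM values added up to between 638536 and 814565 in S-H and between 790662 and 846661 in S-L. As defining genes of the tissue, 7 of 10 muscle fibre markers were tested and summed to between 12871 and 18899 FPKM in S-H and between 14435 and 24092 FPKM in S-L. A gene passed with an unadjusted p below 0.01 together with a log2 fold change of 1 or more in either direction, tested with limma on log2(FPKM + 0.1), a scale that understates the change of weakly expressed genes. Here 1.36% of the tested genes passed, 150 higher and 25 lower in S-H. Dividing each library by a median-ratio size factor, from 0.807 in LW90 to 1.15 in LW119, gave 82 higher and 56 lower and moved the median of all tested genes on the log2 scale from 0.21 to 0.0051. No gene had an adjusted p below 0.05 in limma, against 1049 with an unadjusted p below 0.05. Over the alternative settings between 0 and 9 genes did, none of them one of the 10 enzymes, whose lowest adjusted p was 0.246 (DGAT2).

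Among the triglyceride assembly enzymes, DGAT2, which catalyses the last acylation, was the one gene that passed, at a 5.39-fold higher mean in S-H. The other 9 did not pass, and their log2 fold changes lay between -0.045 for LPIN1 and 0.89 for AGPAT1. The median log2 fold change of the 10 genes was 0.45, and 8 of them lay above the median of all tested genes. With size factors the median of the 10 was 0.23, that of all genes 0.0051, and 8 again lay above it.

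**Figure D1:**
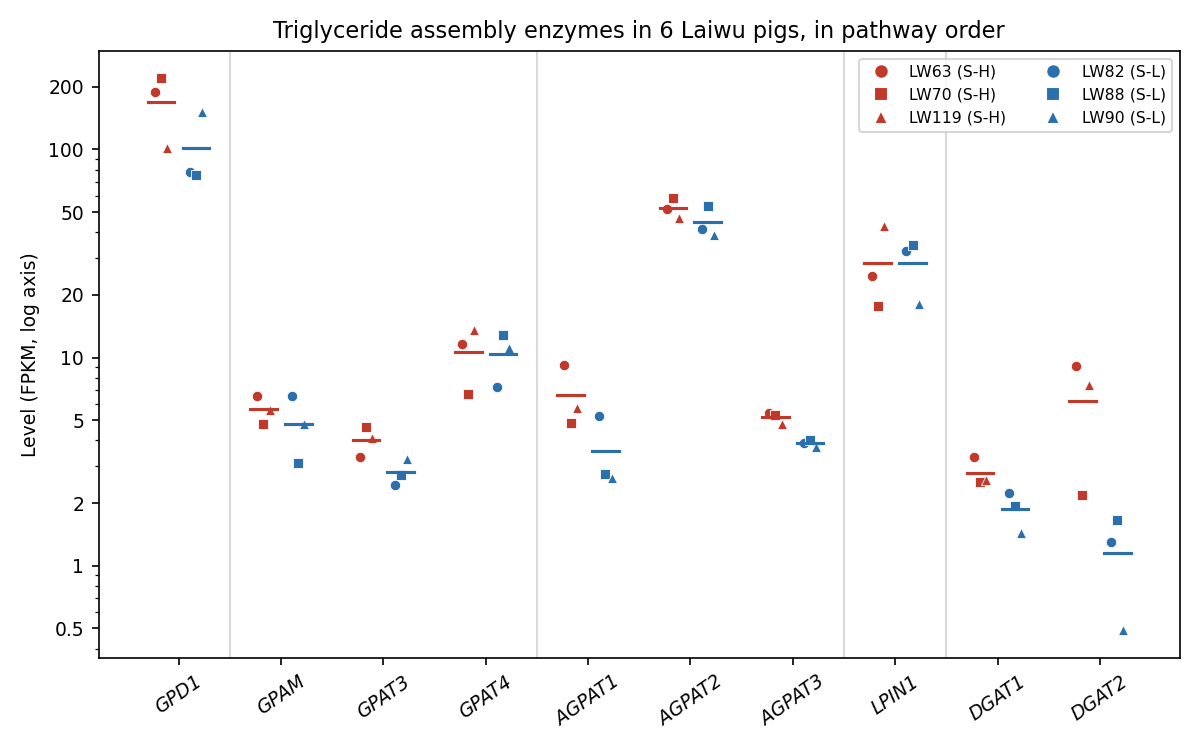
Level of each enzyme in FPKM (log axis) in the order of the pathway, with 1 point per pig, S-H pigs in red, S-L pigs in blue and bars at the group means. The DGAT2 points spread from 0.490 to 9.07 FPKM with the 3 S-H pigs above the 3 S-L pigs, while the points of GPAT4 and LPIN1 are mixed.

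Levels differed widely between the enzymes. GPD1 had the highest mean over the 6 pigs, 135.5 FPKM, which is the 98.0th percentile of tested genes, followed by AGPAT2 at 48.4 FPKM, LPIN1 at 28.4 FPKM and GPAT4 at 10.5 FPKM. This order held in 6 of 6 pigs, down to GPAM at 5.23 FPKM. Below GPAT4 neighbouring genes did not keep one order, since GPAM exceeded AGPAT1 (5.06 FPKM) in 3 of 6 pigs and AGPAT1 exceeded AGPAT3 (4.53 FPKM) in 3 of 6. DGAT2 (3.68 FPKM) exceeded GPAT3 (3.41 FPKM) in 2 of 6 pigs despite its higher mean, and DGAT1 had the lowest mean, 2.34 FPKM, at the 38.7th percentile.

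The supply step was read from GPD1, the cytosolic glycerol-3-phosphate dehydrogenase (ENSSSCG00000000214, chromosome 5, 16007448 to 16017825 of Sscrofa11.1). Its level was 187.6, 219.3 and 101.0 FPKM in LW63, LW70 and LW119 and 77.7, 75.6 and 151.8 FPKM in LW82, LW88 and LW90. The groups overlapped, because LW90 stood above LW119. The log2 fold change was 0.74 (standard error 0.37, 95% interval -0.088 to 1.57; unadjusted p 0.0743, adjusted p 0.618, limma). Without LW119 GPD1 passed the thresholds, at a log2 fold change of 1.07 (unadjusted p of 0.00906, limma).

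Of the enzymes of the first acylation, GPAM, the mitochondrial glycerol-3-phosphate acyltransferase (ENSSSCG00000010631, chromosome 14, 122538600 to 122724131), had 6.56, 4.81 and 5.57 FPKM in the S-H pigs and 6.55, 3.11 and 4.77 FPKM in the S-L pigs, each in the order given above. LW63 and LW82, 1 pig of each group, were highest and nearly equal. The log2 fold change was 0.28 (standard error 0.31, 95% interval -0.41 to 0.97; adjusted p of 0.797, limma). GPAT4, an isoenzyme of the endoplasmic reticulum (ENSSSCG00000007019, chromosome 17, 10691751 to 10725005), had 11.6, 6.71 and 13.6 FPKM in S-H and 7.21, 12.8 and 11.1 FPKM in S-L. The groups were mixed, with a log2 fold change of 0.022 (standard error 0.33, 95% interval -0.71 to 0.76; adjusted p of 0.991, limma) that became -0.20 with size factors.

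GPAT3, the other isoenzyme of the endoplasmic reticulum (ENSSSCG00000009233, chromosome 8, 134912491 to 134977395), had 3.32, 4.64 and 4.09 FPKM in S-H and 2.45, 2.73 and 3.26 FPKM in S-L. The groups did not overlap, but LW63 and LW90 at their edges lay 3.32 against 3.26 FPKM. With a log2 fold change of 0.50 (standard error 0.26, 95% interval -0.093 to 1.08; adjusted p of 0.628, limma) it did not pass, and with size factors the groups overlapped, with LW90 at 4.04 FPKM above LW63 at 2.93 FPKM. Summed over the 3 isoenzymes, the GPAT step stood at 20.3 ± 3.71 in S-H against 18.0 ± 1.54 FPKM in S-L (SD, n = 3 each), with overlapping groups.

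At the next acylation, AGPAT2, the isoenzyme whose loss causes congenital lipodystrophy (ENSSSCG00000040845, an unplaced scaffold, 936921 to 1106715), made up most of the step. Its level was 51.5, 58.2 and 46.6 FPKM in S-H and 41.6, 53.4 and 38.8 FPKM in S-L. LW88 of the S-L group stood above LW63 and LW119, and the log2 fold change was 0.23 (standard error 0.23, 95% interval -0.29 to 0.75; adjusted p of 0.781, limma).

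AGPAT1, a broadly expressed isoenzyme (ENSSSCG00000001435, chromosome 7, 24204902 to 24213193), had 9.16, 4.84 and 5.73 FPKM in S-H and 5.23, 2.76 and 2.64 FPKM in S-L. LW82 lay above LW70, so the groups overlapped. The log2 fold change of 0.89 (standard error 0.35, 95% interval 0.11 to 1.67; unadjusted p 0.0286, adjusted p 0.591, limma) did not pass, and over the alternatives run it passed only without LW82 (1.20, unadjusted p of 0.00694, limma).

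AGPAT3, a further isoenzyme (ENSSSCG00000038081, chromosome 13, 206751103 to 206906353), had 5.42, 5.32 and 4.80 FPKM in S-H and 3.89, 4.03 and 3.72 FPKM in S-L. The groups did not overlap, but the difference was small, with a log2 fold change of 0.41 (standard error 0.23, 95% interval -0.12 to 0.93; adjusted p of 0.646, limma). With size factors they overlapped, LW90 at 4.60 FPKM lying above LW119 at 4.18 FPKM. The AGPAT step summed to 63.9 ± 5.97 in S-H against 52.0 ± 7.59 FPKM in S-L (SD, n = 3 each), and LW88 at 60.2 FPKM lay above LW119 at 57.1 FPKM.

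LPIN1, the phosphatidate phosphatase lipin 1, which also acts as a transcriptional co-regulator (ENSSSCG00000008624, chromosome 3, 124940548 to 125074123), had 24.6, 17.7 and 42.7 FPKM in S-H and 32.6, 34.6 and 18.2 FPKM in S-L. Both the highest pig, LW119, and the lowest, LW70, were S-H pigs. The log2 fold change was -0.045 (standard error 0.37, 95% interval -0.86 to 0.77; adjusted p of 0.977, limma), and it was 0.089 when the libraries were scaled to TPM. The sum includes 4 assembled transcripts of the locus, LPIN1-OT1 to LPIN1-OT4, and with Ensembl transcripts only the log2 fold change was 0.058.

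Of the 5 steps, the last acylation had the largest ratio of group means. DGAT2, which is known for storing newly made fatty acids and sits at the endoplasmic reticulum and lipid droplets (ENSSSCG00000034102, chromosome 9, 10032127 to 10068464), had 9.07, 2.19 and 7.36 FPKM in LW63, LW70 and LW119 and 1.31, 1.66 and 0.490 FPKM in LW82, LW88 and LW90. The 3 S-H pigs lay above the 3 S-L pigs, but LW70 was close to LW88, and LW63 and LW119 were well above the other 4 pigs. The group levels were 6.21 ± 3.58 in S-H against 1.15 ± 0.599 FPKM in S-L (SD, n = 3 each). The log2 fold change was 2.25 (standard error 0.56, 95% interval 1.002 to 3.49; unadjusted p 0.00247, adjusted p 0.533, limma). With 1 pig left out at a time the log2 fold change stayed between 1.78 and 2.87, but DGAT2 did not pass without LW63 (1.86, unadjusted p of 0.0109, limma) or without LW90 (1.78, unadjusted p of 0.0107, limma).

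DGAT1, the unrelated enzyme that catalyses the same reaction (ENSSSCG00000005918, chromosome 4, 452861 to 466883), had 3.32, 2.52 and 2.57 FPKM in S-H and 2.23, 1.94 and 1.44 FPKM in S-L. The groups did not overlap, which also held with size factors, where LW119 at 2.24 FPKM was next to LW82 at 2.19 FPKM. Its log2 fold change of 0.57 (standard error 0.28, 95% interval -0.066 to 1.20; unadjusted p 0.0738, adjusted p 0.618, limma) did not pass. Both enzymes together stood at 9.01 ± 3.92 in S-H against 3.02 ± 0.946 FPKM in S-L (SD, n = 3 each), a 2.98-fold higher mean.

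Of the 10 genes, 4 (GPAT3, AGPAT3, DGAT1 and DGAT2) had no overlap between the groups, with S-H higher in each, beside 13.1% of all tested genes with S-H higher and 14.8% without overlap in either direction. With size factors 2 of them, DGAT1 and DGAT2, were left, beside 5.94% of all tested genes. An unadjusted p below 0.05 was reached by 2 of the 10 genes, AGPAT1 and DGAT2, beside 8.17% of the tested genes.

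**Figure D2:**
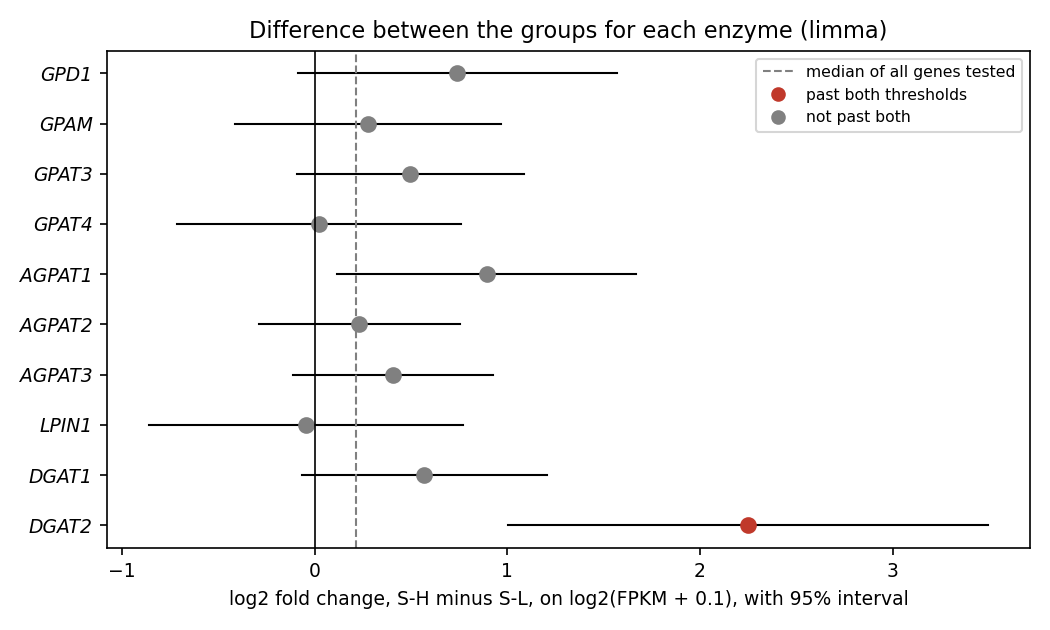
Log2 fold change of each enzyme (S-H minus S-L, points) with its 95% interval from limma (lines), and the median of all tested genes as a dashed line at 0.21. The interval of DGAT2 runs from 1.002 to 3.49 and that of AGPAT1 from 0.11 to 1.67, and the other 8 intervals include 0.

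The makeup of each step does not depend on the scaling between libraries, so it was compared as shares of the summed FPKM. DGAT2 made up 73.2%, 46.5% and 74.1% of the DGAT step in LW63, LW70 and LW119 and 37.0%, 46.0% and 25.4% in LW82, LW88 and LW90. DGAT2 was thus the larger of the pair in LW63 and LW119, and DGAT1 in the other 4 pigs. The groups did not overlap, but LW70 and LW88 were nearly equal. The means were 64.6% ± 15.7 in S-H against 36.1% ± 10.3 in S-L (SD, n = 3 each), a difference of 28.5 percentage points (two-sided exact permutation, p = 0.10, which is the minimum with 3 pigs against 3, and 0.30 after Benjamini-Hochberg adjustment over the 3 shares tested).

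AGPAT2 made up between 77.9% and 88.7% of the AGPAT step in every pig, at 81.6% ± 3.60 in S-H against 85.6% ± 3.37 in S-L (SD, n = 3 each, exact two-sided permutation test, p = 0.20). AGPAT1 took between 4.58% and 13.9% of this step and AGPAT3 between 6.70% and 8.41%. In the GPAT step GPAT4 had the largest share in 6 of 6 pigs, from 41.5% in LW70 to 68.6% in LW88. The share of GPAM ranged over the S-L pigs from 16.7% in LW88 to 40.4% in LW82, with S-H inside this range at 28.1% ± 3.61 against a mean of 27.4% ± 12.0 for S-L (SD, n = 3 each, exact two-sided permutation test, p = 1). GPAT3 had its highest share in LW70, at 28.7%, against 14.7% to 17.6% in the other 5 pigs.

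**Figure D3:**
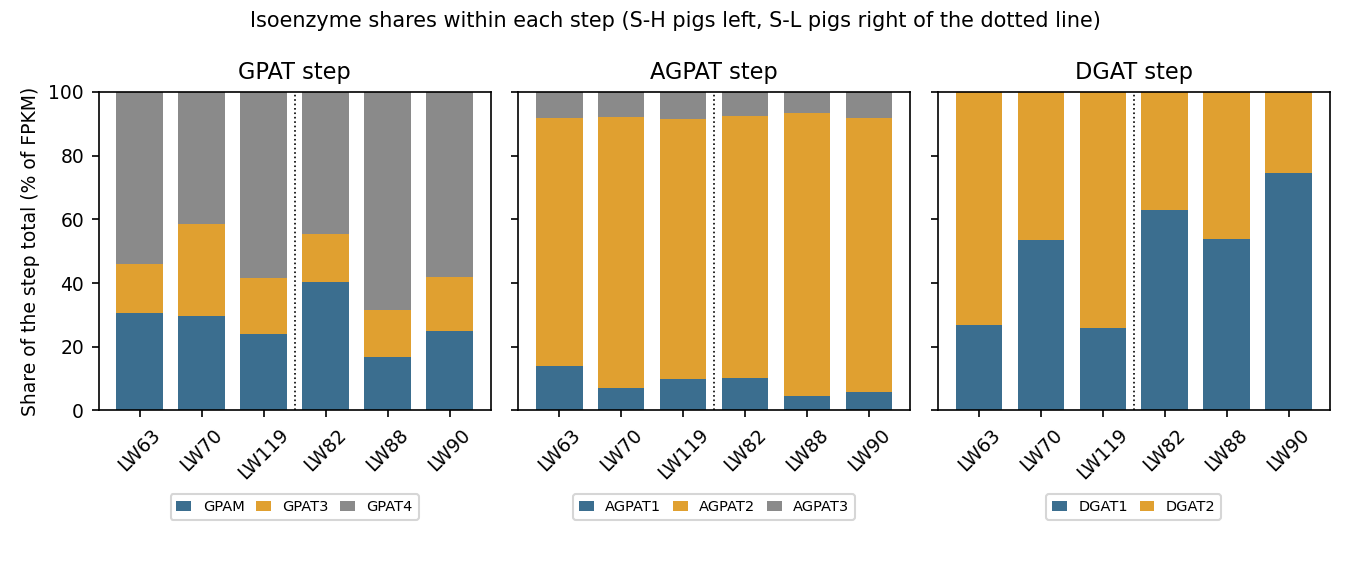
Share of each isoenzyme in the summed FPKM of its step (%, stacked bars), 1 bar per pig, for the GPAT, AGPAT and DGAT steps. AGPAT2 fills between 77.9% and 88.7% of the AGPAT bars in all pigs, and DGAT2 fills between 46.5% and 74.1% of the DGAT bars in S-H and between 25.4% and 46.0% in S-L.

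The table holds 43 transcripts of the 10 genes, 36 from Ensembl and 7 assembled from the reads, and 7 of them are listed at 0 in all pigs. Of the 30 that reached the minimum level none passed the thresholds in limma (3 had an unadjusted p below 0.05), beside 1.25% of all tested transcripts. DGAT2 was carried by a single transcript, DGAT2-202, since the other 2 are listed at 0 in all pigs. As a transcript it had the same log2 fold change of 2.25 as the gene, at an unadjusted p of 0.0125 (adjusted p of 0.835, limma) in the fit across transcripts, and among the fits with 1 pig left out it passed without LW70. DGAT1-202, AGPAT1-201, AGPAT3-201 and GPAM-202 likewise held between 96.2% and 99.3% of their genes on average over the pigs.

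In 5 genes the level was split over transcripts that differed from pig to pig. AGPAT2-202 held between 93.9% and 98.1% of AGPAT2 in 5 pigs but 7.18% in LW63, where AGPAT2-201 held 89.7%. In FPKM, AGPAT2-201 was at 46.2 in LW63 and at no more than 0.334 in any other pig, while the gene sum of LW63 lay within the range of the other pigs. AGPAT2-201 is annotated from 936921 to 1106715 and that span overlaps 16 other Ensembl genes, whereas AGPAT2-202 is annotated from 1095789 to 1106711.

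GPD1-202 is listed at 0 in LW82 and LW88 and had 52.7, 19.5 and 38.4 FPKM in the 3 S-H pigs and 32.9 FPKM in LW90 (unadjusted p 0.0389, adjusted p 0.848, limma). GPD1-203 held 59.1% of the gene in LW82, 48.4% in LW88 and 22.1% in LW90, against 23.0%, 4.09% and 16.7% in the S-H pigs. GPD1-201, the most abundant on average, held 87.0% in LW70 and between 40.9% and 56.3% in the others. These shares differed within groups as well as between them.

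LPIN1-202 was the main LPIN1 transcript, with 69.5% to 83.4% of the gene in 5 pigs and 38.9% in LW70, where LPIN1-204 held 33.7% and was listed at 0 in the other 5. LPIN1-OT3, an assembled transcript within the LPIN1 locus, was lower in S-H without overlap, at 0.495, 0.498 and 1.16 FPKM against 1.24, 1.87 and 1.41 FPKM (log2 fold change -1.05, unadjusted p 0.0484, adjusted p 0.848, limma), where 11.3% of all tested transcripts had no overlap in either direction. In GPAT3, GPAT3-204 held between 51.6% and 87.1% of the gene, GPAT3-201 held 41.1% in LW70 and GPAT3-205 held 39.8% in LW90. In GPAT4, GPAT4-202 held between 57.7% and 79.5%. The sources used here do not give how reads shared between overlapping transcripts were divided beyond the use of StringTie, and its part in these differences was not tested. The loci of GPAM, AGPAT1 and DGAT1 each overlap 1 other Ensembl gene (TECTB, EGFL8 and HSF1), and those of GPD1, GPAT3, GPAT4, AGPAT3, LPIN1 and DGAT2 overlap none.

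**Figure D4:**
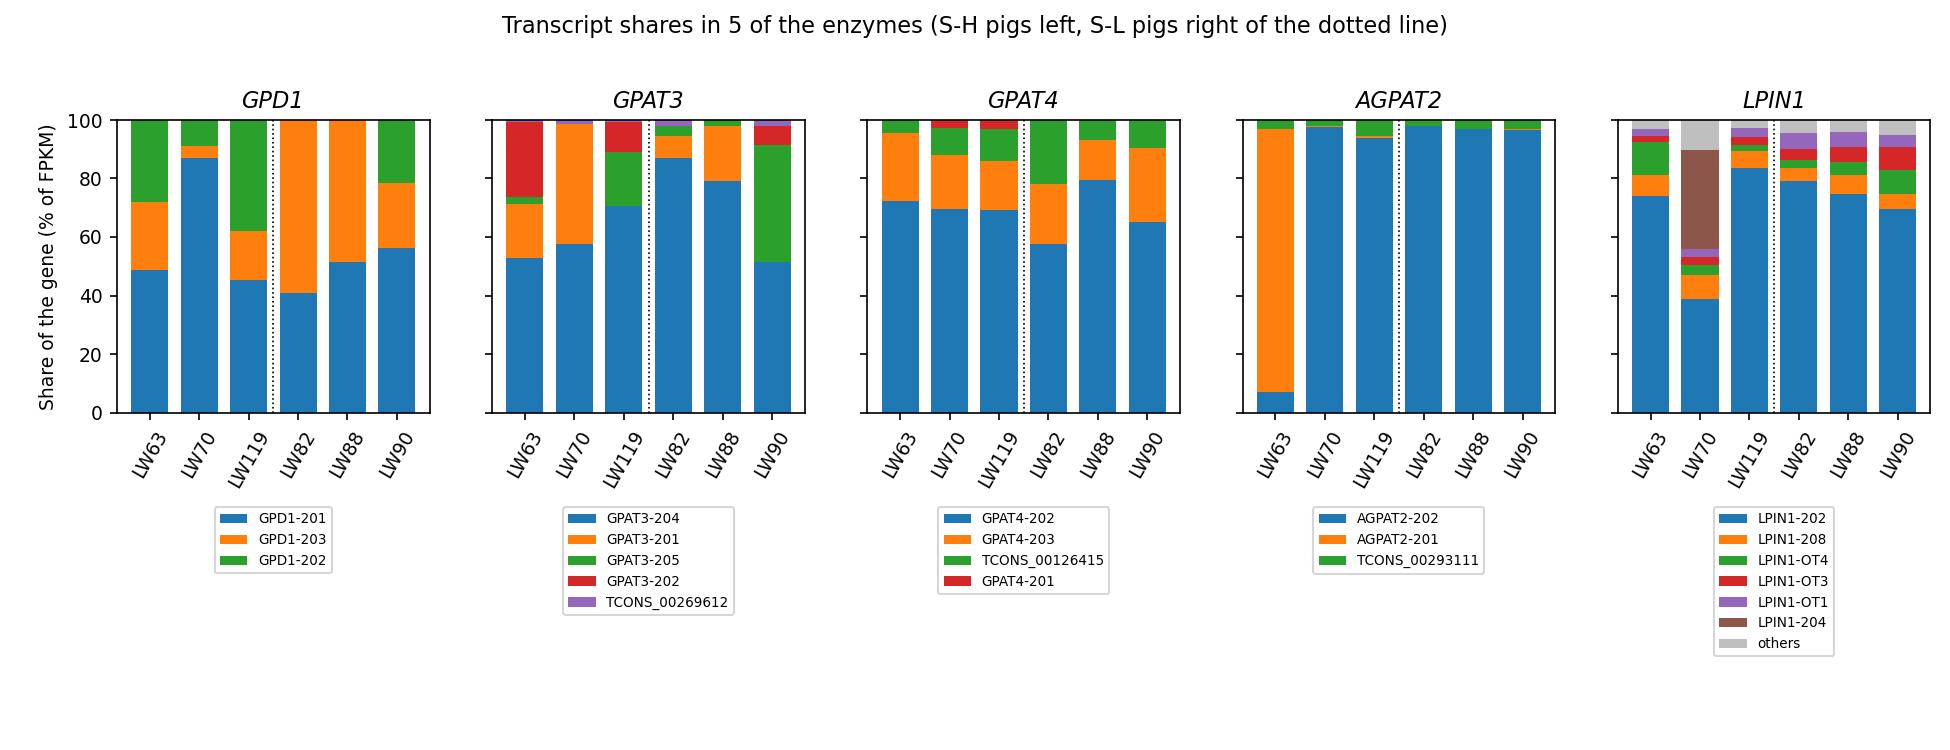
Share of each transcript in the FPKM of its gene (%, stacked bars), 1 bar per pig, for the 5 enzymes whose level was split. LW63 stands apart in AGPAT2, where AGPAT2-201 fills 89.7% of its bar, LW70 in LPIN1, where LPIN1-204 fills 33.7%, and GPD1-202 is missing from the bars of LW82 and LW88.

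Muscle with more intramuscular fat also holds fat cells, and in bulk RNA fewer cells of a type and less RNA per cell cannot be told apart. Of 12 fat cell markers, 10 were tested (CIDEA and TUSC5 were not). Of these, 6 passed, all higher in S-H, beside 1.17% of all tested genes (adjusted p from 0.472 to 0.538, limma). No tested marker was at 0, and 9 of the 10 had no overlap between the groups with S-H higher, beside 13.1% of all tested genes. Neither count is given here with size factors. Their summed level lay between 498.1 and 1568 FPKM in S-H and between 292.8 and 414.8 FPKM in S-L, with a median log2 fold change of 1.67. ADIPOQ, the gene of the fat cell hormone adiponectin, stood at 193.2 ± 149.9 in S-H against 46.8 ± 21.7 FPKM in S-L (SD, n = 3 each).

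Set against ADIPOQ in the same pig, DGAT2 was 2.48%, 1.86% and 7.64% of it in LW63, LW70 and LW119 and 1.94%, 3.36% and 2.05% in LW82, LW88 and LW90. The groups overlapped, with LW70 lowest of all (difference of the log2 ratio 0.47, exact two-sided permutation test, p = 0.70). Set against PLIN1, the coat protein of fat cell lipid droplets, DGAT2 also overlapped between the groups (difference of the log2 ratio 0.31, exact two-sided permutation test, p = 0.70), as it did against the summed markers (1.03, exact two-sided permutation test, p = 0.40). Against ADIPOQ, S-L was higher without overlap for 5 of the 10 enzymes (GPAM, AGPAT2, AGPAT3, LPIN1 and DGAT1), beside 60.2% of all tested genes set against ADIPOQ in the same way. ADIPOQ was itself higher in S-H without overlap, which moves ratios to it towards S-L. Each of the 5 had p = 0.10 (exact two-sided permutation test), the minimum possible, which groups without overlap always give with 3 pigs against 3. Against PLIN1, S-L was higher without overlap for 6 of the 10, beside 73.7% of all tested genes, and against the summed markers for 1 (AGPAT2), beside 39.3%. After Benjamini-Hochberg adjustment over the 39 ratios computed, the p values of 0.10 became 0.30, and that of DGAT2 against ADIPOQ was 0.738. These ratios are not separate tests, since ADIPOQ and PLIN1 are part of the summed markers. The muscle fibre markers had a median log2 fold change of -0.48, and 3 of the 7 tested were above 0, among them CKM, the muscle creatine kinase, at 0.21 (adjusted p of 0.874, limma). None passed, but 2, picked out after their values were seen, had an unadjusted p below 0.05. ACTN3, an actin-binding protein of fast fibres, was at -0.82 with S-L higher without overlap (unadjusted p 0.0111, adjusted p 0.577, limma), and ACTA1, the skeletal muscle actin, was at -0.97 with overlapping groups (unadjusted p 0.0240, adjusted p 0.583, limma). TNNT1, the slow-fibre troponin T of the same list, had S-H higher without overlap, at 0.51 (unadjusted p 0.0806, adjusted p 0.618, limma). MYH7, TNNT3 and MYLPF, the rest of those tested, were at 0.34, -0.51 and -0.48 with overlapping groups (adjusted p of 0.768, 0.705 and 0.735, limma). The list mixes fibre types, so its median does not describe the fibres as a whole. Of all tested genes 14.8% had no overlap in either direction. The part of the fat cell and fibre markers in the enzyme values was not tested. Markers of fibroblasts, endothelium, macrophages and red blood cells had overlapping summed levels, and none of those tested passed in limma or had an unadjusted p below 0.05. Among them only PECAM1, an endothelial marker, had no overlap, with 51.4 to 67.3 FPKM in S-H against 33.6 to 50.9 FPKM in S-L.

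**Figure D5:**
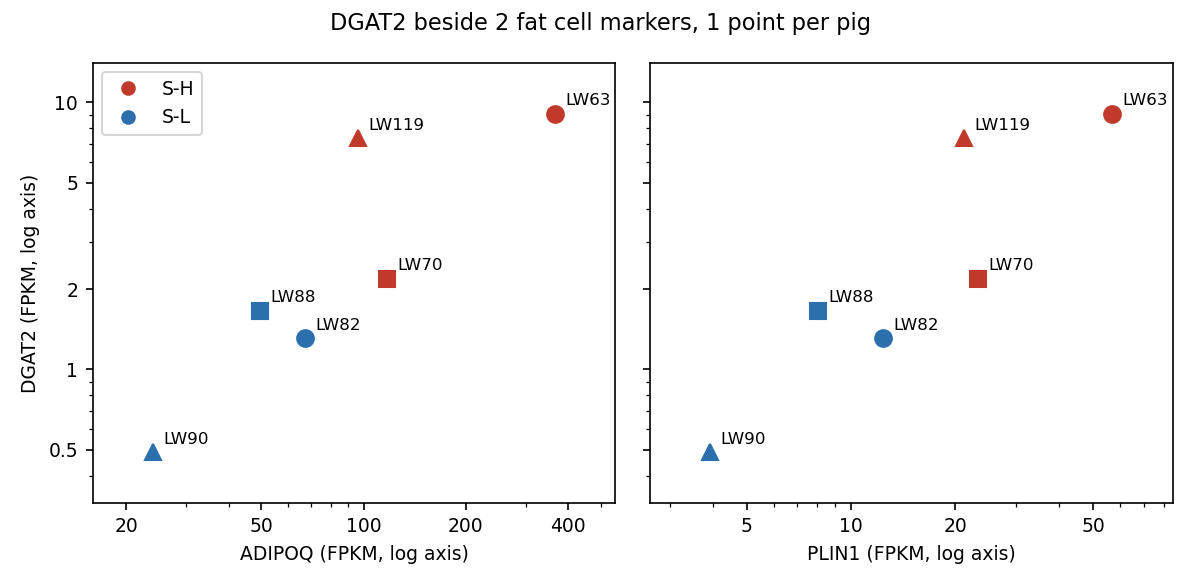
DGAT2 (FPKM, log axis) against the fat cell markers ADIPOQ and PLIN1 (FPKM, log axes), 1 point per pig, S-H in red and S-L in blue. LW63 is highest and LW90 lowest in all 3 genes, and LW119 has more DGAT2 than LW70 at a similar level of both markers.

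The other genes around the pathway were read from 7 lists of 75 gene names, of which 57 were tested. Of these 57, 5 passed and all were higher in S-H, beside 1.17% of all tested genes that passed with S-H higher. The median log2 fold change over the 57 was 0.24 beside 0.21 for all genes. The 5 were AQP3, DBI, LPCAT1, PLIN1 and CIDEC, and PLIN1 and CIDEC are also among the fat cell markers above. With size factors 3 of them passed (CIDEC, LPCAT1 and PLIN1), and 2 passed without LW90 (AQP3 and PLIN1). Over all list genes the count was 3 without LW82 or LW88 (CIDEC, DBI and PLIN1 each time). It was also 3 without LW63 (CIDEC, PLIN1 and LCLAT1), where LCLAT1 is not among the 5 and was lower in S-H.

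In the supply of glycerol and glycerol-3-phosphate, 1 of 5 tested genes passed. AQP3, a channel for water and glycerol, had 12.1, 4.30 and 3.23 FPKM in S-H and 1.21, 0.655 and 2.51 FPKM in S-L (log2 fold change 2.04, standard error 0.55, unadjusted p 0.00401, adjusted p 0.533, limma). PGP, a glycerol-3-phosphate phosphatase, and GPD1L, a relative of GPD1, were the most abundant genes of this list, at log2 fold changes of 0.24 and 0.023 (adjusted p of 0.803 and 0.991, limma).

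In acyl-CoA supply, 1 of 8 tested genes passed. DBI, which binds acyl-CoA, had 21.7, 20.05 and 13.4 FPKM in S-H and 8.18, 10.3 and 6.17 FPKM in S-L (log2 fold change 1.15, standard error 0.29, unadjusted p 0.00250, adjusted p 0.533, limma). ACSL1, a long-chain acyl-CoA synthetase and the most abundant gene of this list, ranged from 68.1 to 285.1 FPKM within S-H and from 105.7 to 201.0 FPKM within S-L (log2 fold change 0.24, adjusted p of 0.906, limma).

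Among acylation isoforms outside the 10 genes, 1 of 10 tested genes passed, and 4 had an unadjusted p below 0.05, beside 8.17% of all tested genes. Of these 4, MBOAT1, LPCAT1 and LPCAT2 were higher in S-H. LCLAT1 was lower in S-H without overlap, as were 218 of all tested genes (log2 fold change -0.93, unadjusted p 0.0253, adjusted p 0.587, limma). LPCAT1, a lysophosphatidylcholine acyltransferase, was weakly expressed, at 0.720, 0.520 and 0.781 FPKM in S-H and 0.183, 0.266 and 0.234 FPKM in S-L (log2 fold change 1.23, standard error 0.34, unadjusted p 0.00506, adjusted p 0.548, limma). LPCAT3 and AGPAT5, the most abundant of this list, had log2 fold changes of 0.0089 and 0.50 (adjusted p of 0.997 and 0.623, limma).

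In droplet formation, 2 of 9 tested genes passed, PLIN1 (log2 fold change 2.04, standard error 0.47, unadjusted p 0.00147, adjusted p 0.472, limma) and CIDEC, a protein of fat cell droplet fusion (2.02, standard error 0.49, unadjusted p 0.00208, adjusted p 0.522, limma). PLIN2 and PLIN4, the most abundant of this list, had log2 fold changes of -0.37 and 0.56 (adjusted p of 0.736 and 0.701, limma).

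In the other 3 lists none of the tested genes passed. For the other lipins and their phosphatase 3 genes were tested, led by CNEP1R1 and LPIN2 with log2 fold changes of -0.35 and -0.090 (adjusted p of 0.741 and 0.943, limma). For the monoacylglycerol route 2 were tested, TMEM68 and MOGAT1, at 0.19 and 0.28 (adjusted p of 0.878 and 0.915, limma). For the phospholipid branch, which draws on the same phosphatidate and diacylglycerol, 20 were tested, led by PTDSS1 and PCYT1A at 0.30 and 0.22 (adjusted p of 0.781 and 0.808, limma). Of the 20, 2 had an unadjusted p below 0.05, and none of the other tested genes of these 3 lists did.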

How the data were processed

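RNA of the LD muscle of 6 pigs, 3 S-H and 3 S-L, was analysed with 1 library per pig. Per the paper's methods, the authors depleted ribosomal RNA, built strand-specific libraries, aligned the reads with HISAT2 to Sscrofa11.1 and quantified transcripts with StringTie, with versions not given in the sources used here. The authors computed FPKM for each transcript, and these values were deposited. The values show that 21104 Ensembl transcripts without a symbol, none of a triglyceride assembly enzyme, are in TPM, and these were multiplied by 1 factor per pig to reach FPKM. Replicates are separate pigs. The paper gives the reads of each library, but the read count of each gene is unknown.

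Gene values are sums over the transcripts sharing a gene ID. Of 15354 IDs without a symbol, 822 were named from a table of gene names. Protein-coding genes were those typed so by RefSeq on that assembly, found by symbol (14547 genes of any type) or by a reciprocal overlap of at least 50% (4148). Those with a mean of at least 0.1 FPKM were tested in R 4.3.3 using limma 3.58.1 and a trended variance, and p values were adjusted by Benjamini-Hochberg over all 12839 genes. Transcripts were fitted likewise over 40336. The study's edgeR test needs counts and was not run. Shares and ratios were compared by exact permutation tests in scipy 1.17.1 with Python 3.11.15. The ratios were not among the comparisons set beforehand. The fit was first tested on simulated data.

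The enzymes and gene lists were chosen with earlier results of these data known. The genes set to be named were the 10 enzymes, the pathway list genes that passed, the 2 most abundant genes of each pathway list, and ADIPOQ, PLIN1 and CKM. Other list and marker genes, and enzyme transcripts beyond the main one of each gene, were named after their values were seen. Alternatives were another pseudocount, filter, scaling, variance model, gene set or gene value, and each pig left out in turn. List names that matched no tested gene have no part in the counts. CTDNEP1 of the lipin list and TMEM159 of the droplet list, not typed as protein-coding in that match, were fitted only among all Ensembl genes. Their log2 fold changes were -0.18 and 0.92 (unadjusted p 0.425 and 0.0191, adjusted p 0.839 and 0.649, limma). LDAF1 of the droplet list is another name of TMEM159, so that gene has no part in the droplet counts.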

Additional observations from a re-analysis of the deposited data

How the results depend on the processing

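Of the 10 enzymes, 1 passed (DGAT2), and it was also the one that passed with another pseudocount, filter, scaling or variance model, with all Ensembl genes and with Ensembl transcripts only, the last chosen after seeing the data. Using each gene's transcript of highest mean instead of the sum, 0 passed, DGAT2 having the same values and log2 fold change of 2.25 but an unadjusted p of 0.0123 in limma. At an adjusted p below 0.05 the count was 0 (limma; 2 had an unadjusted p below 0.05), and the adjusted p of DGAT2 ranged from 0.246 to 0.9999 over the alternatives. With 1 pig left out the count of enzymes lay between 0 (without LW63 or LW90) and 2 (with GPD1 without LW119, with AGPAT1 without LW82). The count of other pathway genes, 5, was 3 with size factors, 2 with quantile normalization, 2 with the transcript of highest mean, 0 at an adjusted p below 0.05 and between 2 and 6 with 1 pig left out (3 without LW63, LW82 or LW88 and 2 without LW90). The count of enzyme transcripts, 0, was between 0 and 1 with 1 pig left out (GPD1-203 without LW63, DGAT2-202 without LW70, GPD1-202 without LW90). The DGAT2 share difference was between 23.1 and 37.5 points with 1 pig left out. The AGPAT2 share difference, -4.00 points, became -23.3 with the transcript of highest mean, which leaves out AGPAT2-201 of LW63, and lay between -5.80 and -2.20 with 1 pig left out. The GPAM share difference of 0.689 points became -0.346 with Ensembl transcripts only and lay between -4.64 and 7.21 with 1 pig left out. The log2 fold changes that turned were GPAT4, to -0.20 with size factors, -0.10 with quantile normalization and between -0.22 and 0.32 with 1 pig left out, LPIN1, to 0.089 with TPM, 0.058 with Ensembl transcripts only and between -0.39 and 0.24 with 1 pig left out, and AGPAT2, to -1.02 with the transcript of highest mean. The cause of the other changes was not tested. No paired analysis was possible because S-H and S-L are different animals and the labels carry no replicate numbers. FPKM gives no read count per gene, so counting error cannot be stated.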
